A study of Mus musculus with 12 samples.

Results

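The genes of haem synthesis were followed in embryonic heart ventricles through 8 of its enzymes, Alas1, Alas2, Alad, Uros, Urod, Cpox, Ppox and Fech. Members were the probe sets, groups of short probes that report one transcript, whose single gene symbol in the array annotation is one of these names. That gave 19 probe sets for the 8 genes, of 34958 single-symbol probe sets and 18194 genes in all. Each gene is represented by the probe set with the highest mean over all arrays, and its other probe sets are given beside it.

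RNA came from left and right ventricles (LV and RV) of mouse embryos at 14.5 days post coitum, pooled from 15 to 30 embryos per sample, and was hybridised to 12 Affymetrix arrays. Wild-type embryos (WT) were of the CD1 strain, which is outbred, and the Nos3-/- embryos (KO), which carry a targeted Nos3 allele on both chromosomes, were of strain B6.129P2-Nos3tm1unc/J. Nos3 encodes endothelial nitric oxide synthase. The 4 groups, WT LV, WT RV, KO LV and KO RV, held 3 arrays each, so every genotype comparison is also one of strains, and allele and strain cannot be told apart. The question the design asks is how ventricular expression differs between these embryos. Values are log2 expression, each difference is on that scale, and p-values measure the spread between pools, of which 3 per group limit the precision.

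Haem is the iron-bearing ring of haemoglobin, cytochromes and, among others, the nitric oxide synthases. Its synthesis starts in mitochondria, where an aminolevulinate synthase joins glycine to succinyl-CoA, runs through the cytosol from Alad to Urod, and returns to mitochondria for Cpox, Ppox and the insertion of iron by Fech. Alas1 is the synthase of most tissues and is repressed by haem. Alas2, on the X chromosome, is the synthase of the red cell lineage, whose precursors make haem for haemoglobin. A ventricle at this stage contains cardiomyocytes, which need haem for cytochromes, and blood with embryonic and definitive red cells.

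Sequences upstream of the starts are shown because the pathway has separate housekeeping and erythroid synthase genes, and erythroid factors are known to bind GATA and Klf1 motifs. RefSeq windows of build GRCm38.p6 were found for 7 of the 8 genes by symbol. The 250 bases before each start are printed 5′ to 3′ for the genes with a match to a motif named below. The windows of Ppox and Urod held no such match and are not printed. Capitals mark matches, on either strand, to GATA motifs (AGATAA and also TGATAA, besides AGATAG and also TGATAG), to a Klf1 motif (CCNCNCCC), to the NF-E2 core (TGAGTCA besides its reverse complement TGACTCA) and to the palindromic Nrf1 motif. Matches to one motif may overlap.
Alas2, chrX:150547167-150547416, plus strand: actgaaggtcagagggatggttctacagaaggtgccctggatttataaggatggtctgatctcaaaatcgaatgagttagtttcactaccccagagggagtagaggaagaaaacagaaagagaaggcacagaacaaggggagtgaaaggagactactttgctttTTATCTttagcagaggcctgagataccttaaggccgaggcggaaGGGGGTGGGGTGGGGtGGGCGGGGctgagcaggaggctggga
Alas1, chr9:106247955-106248204, minus strand: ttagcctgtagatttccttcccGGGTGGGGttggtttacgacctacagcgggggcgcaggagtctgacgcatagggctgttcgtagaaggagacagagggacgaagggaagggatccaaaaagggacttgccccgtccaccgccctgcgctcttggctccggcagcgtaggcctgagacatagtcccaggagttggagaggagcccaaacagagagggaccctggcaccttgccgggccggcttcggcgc
Alad, chr4:62520064-62520313, minus strand: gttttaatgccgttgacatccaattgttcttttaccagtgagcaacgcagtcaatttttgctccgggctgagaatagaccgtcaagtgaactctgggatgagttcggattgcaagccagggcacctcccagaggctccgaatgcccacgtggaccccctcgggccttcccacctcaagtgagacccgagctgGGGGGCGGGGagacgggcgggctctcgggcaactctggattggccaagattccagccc
Uros, upstream start, chr7:133709296-133709545, minus strand: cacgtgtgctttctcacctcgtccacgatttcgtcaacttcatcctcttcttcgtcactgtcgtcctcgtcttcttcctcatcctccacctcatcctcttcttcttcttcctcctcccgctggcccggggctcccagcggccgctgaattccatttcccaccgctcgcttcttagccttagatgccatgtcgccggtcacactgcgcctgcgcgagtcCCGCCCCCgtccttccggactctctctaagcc
Uros, downstream start, chr7:133702501-133702750, minus strand: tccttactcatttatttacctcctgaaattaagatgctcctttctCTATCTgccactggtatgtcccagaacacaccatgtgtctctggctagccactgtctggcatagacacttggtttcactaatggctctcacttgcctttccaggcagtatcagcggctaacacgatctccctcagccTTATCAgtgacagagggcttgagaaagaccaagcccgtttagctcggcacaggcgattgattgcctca
Cpox, chr16:58669958-58670207, plus strand: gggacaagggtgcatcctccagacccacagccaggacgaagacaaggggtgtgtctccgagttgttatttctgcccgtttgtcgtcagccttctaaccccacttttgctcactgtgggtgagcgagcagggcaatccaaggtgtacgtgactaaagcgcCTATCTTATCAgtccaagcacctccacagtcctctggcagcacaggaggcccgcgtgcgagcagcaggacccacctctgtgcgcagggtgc

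Alas2 had 1 GATA match, 86 bases before its start, and 4 Klf1 matches, some overlapping, that begin 42 to 26 bases before it. Uros has a start farther downstream, whose window held GATA matches 205 and 68 bases before it, whereas the window of its upstream start held none. In humans Uros is known for a housekeeping and an erythroid promoter. Cpox held overlapping GATA matches 91 and 86 bases before its start. In all 3 of 10 windows of the 7 genes had a GATA match, against 26.5% of 32851 windows, and 6 of 10 had a Klf1 match, against 45.9%. The Alas1 window printed had a GC content of 62.4% and 16 CpG dinucleotides, that of Alas2 51.2% and 4, and the median of all windows was 52.4% and 6. Alas1, Alad and Uros have 2 windows each. The Alas1 and Alad windows not printed overlap those printed, and the Alas1 one held 74.4% GC, 42 CpG, 2 Klf1 matches and the only Nrf1 match, which 0.782% of all windows have. The NF-E2 core matched 0 of the 10 windows, against 4.46% of all. These are matches of letters, and binding was not measured.

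As a check of the labels, the only Nos3 probe set read 8.36, 8.39 and 8.30 in WT LV and 7.95, 8.02 and 7.86 in KO LV. In RV the WT arrays gave 8.72, 8.94 and 8.37 and the KO arrays 8.23, 8.04 and 7.77. KO lay below WT in both ventricles, with differences of -0.41 (limma adjusted p = 0.0376) and -0.66 (adjusted p = 0.00983), and the right ventricle call held in 22 of 22 other settings. The left ventricle call held in 15 of 22 and ended without any 1 of the 6 LV arrays (adjusted p from 0.0582 to 0.114). Where this probe set lies relative to the disrupted part of the gene was not examined. For the tissue label, 12 of 12 measured genes of ventricular myocardium had a mean above 5.67, the median of all values. Their mean level ran from 13.09 to 13.59 over the arrays. A mean above the median is a low bar, and these genes do not check left against right. Some arrays stood apart. Poly-A transcripts added before labelling averaged 8.89 to 8.94 in WT LV, 8.06 to 8.47 in KO LV and 7.35 to 8.37 in KO RV, while in WT RV they ran from 8.05 to 8.96, highest on replicate 3. Hybridisation controls averaged 11.56 to 11.70 in WT LV, 11.33 to 11.41 in KO LV, 11.34 to 11.58 in WT RV and 11.34 to 11.42 in KO RV. In LV both kinds of control thus separated the genotypes without overlap. The part of the hybridisation controls in the LV differences was not tested. Fetal liver genes averaged 8.86 on WT RV replicate 1 and 5.62 to 7.76 elsewhere. Leaving out WT RV replicate 1 changed no member's call, and calls that changed without WT RV replicate 3 are given with the gene.

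In KO left ventricles the steps split into a larger group that was lower and a pair that was higher. Alas2, Alad, Uros, Urod and Fech fell by 0.55 to 1.39, whereas Cpox and Ppox, the steps from coproporphyrinogen to protoporphyrin, rose by 0.53 and 0.50. Alas1 was the member that did not pass the test. Thus 7 of 8 genes were called by limma at an adjusted p under 0.05, 5 lower and 2 higher, where 30.9% of all 18194 genes were called, 12.3% lower and 18.6% higher. The count was 4 with the mean of a gene's probe sets, where Cpox, Ppox and Fech were not called, and 4 with the poly-A control level as a term, where Alas2, Cpox and Ppox were not. Both higher genes thus lost their calls under either setting, and a called Fech set ran opposite, at 0.72. The KO and WT arrays did not overlap for those 7 genes, as for 44.4% of all genes. The members' median difference was -0.74 and that of all genes -0.01. In bulk tissue, fewer cells of a type and less RNA per cell cannot be told apart.

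In right ventricles 4 of 8 genes were called, Alas2, Alad and Fech lower and Ppox higher, where 8.19% of all genes were called, 3.58% lower and 4.61% higher. The arrays did not overlap for 6 members, the called 4 with Alas1 and Urod, where 29.4% of all genes did not. The median difference of the members was -0.34 there, against -0.04 over all genes. The signs of all 8 differences were the same in both ventricles, and the interaction of genotype and ventricle was called for 0 of 8 members (4 genes over all, 0.022%). At an unadjusted p under 0.05 the interaction counted 1 member, Uros.

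**Figure D1:**
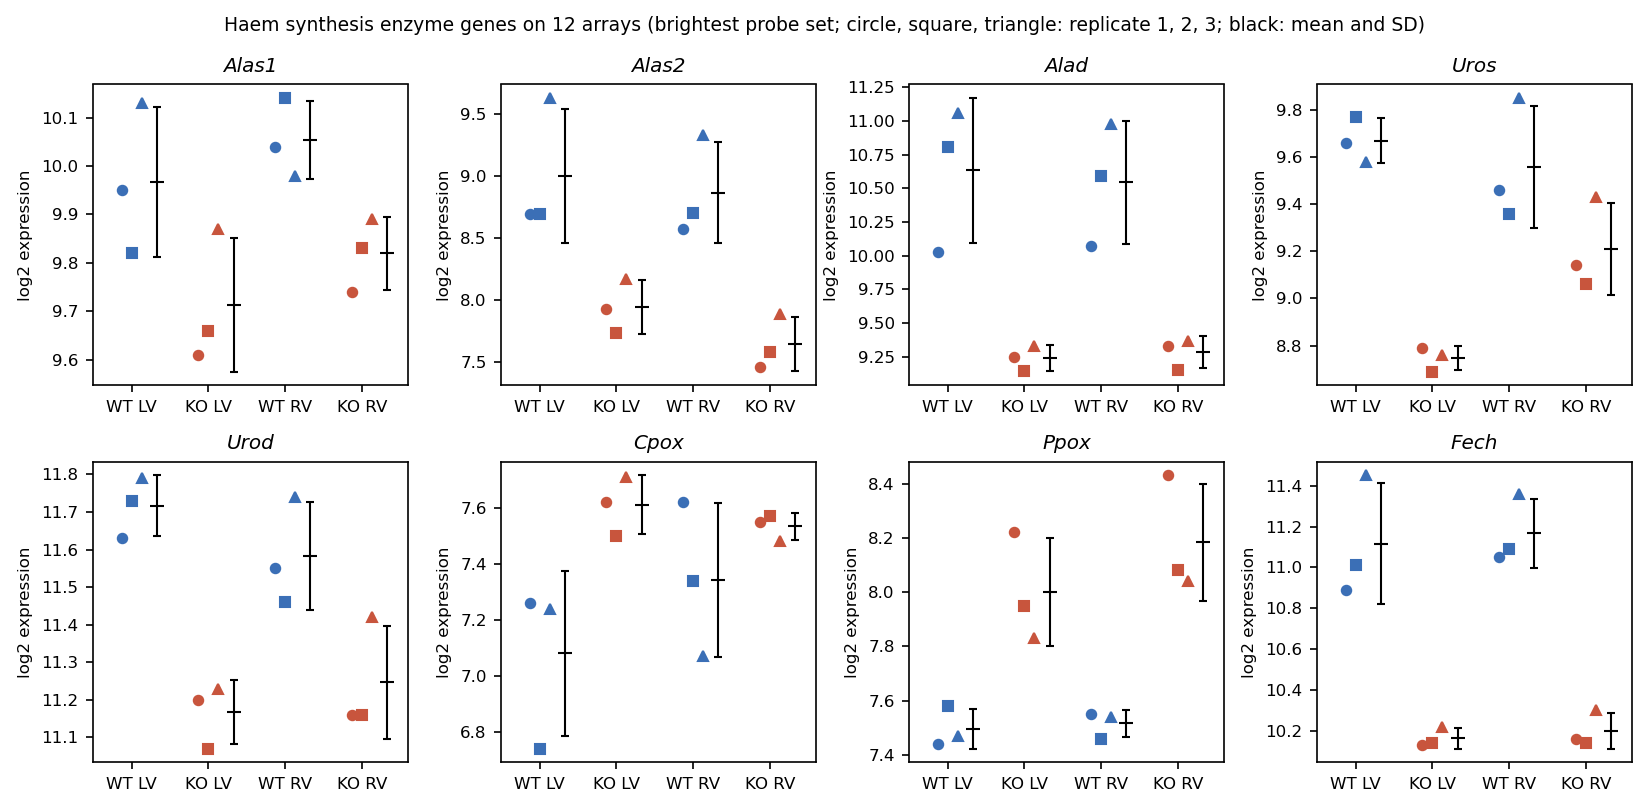
Log2 expression (vertical axes, scaled per gene) of the 8 genes in the 4 groups, with 1 symbol per array and the mean with SD of 3 arrays in black. KO arrays (red) lie below WT arrays (blue) in both ventricles for Alas2, Alad, Urod and Fech and above them for Ppox, and the WT values of Alad range over about 1 unit.

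Alad, the zinc enzyme that condenses 2 aminolevulinate molecules to porphobilinogen, had the largest difference of the 8 on the brightest probe sets. With the mean of a gene's probe sets it was -0.93 in LV and -0.98 in RV, smaller than the -1.06 and -1.22 of Alas2. It read 10.03, 10.81 and 11.06 in WT LV and 9.25, 9.14 and 9.33 in KO LV. In RV it was 10.07, 10.59 and 10.98 on the WT arrays and 9.33, 9.15 and 9.37 on the KO arrays. Every KO array lay below every WT array, and the KO arrays stayed within a narrow band while the WT arrays spread widely. KO minus WT came to -1.39 in the left ventricle (10.63 ± 0.54 against 9.24 ± 0.10, SD, n = 3 each, SE 0.24, limma adjusted p = 0.000874), a level 2.63-fold lower in KO. For the right ventricle it came to -1.26 (10.55 ± 0.46 against 9.28 ± 0.12, SE 0.24, limma adjusted p = 0.00521). Both calls held in 22 of 22 other settings, with differences from -1.70 to -0.93 and from -1.50 to -0.98. The order of the group means was WT LV, WT RV, KO RV and KO LV, and the ventricles of one genotype did not differ beyond their spread.

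In Alad the WT arrays had the same order by replicate number in both ventricles. Replicate 1 was lowest and replicate 3 highest in each, and same-numbered left and right arrays differed by 0.04, -0.22 and -0.08. Whether same-numbered arrays came from the same embryos is not given by the labels. The dimmer Alad probe set (mean 6.82) read 6.60, 7.15 and 7.40 in WT LV and 6.83, 7.30 and 7.35 in WT RV, with replicate 1 again lowest in each ventricle. On that probe set KO arrays read 6.51, 6.59 and 6.63 in LV and 6.56, 6.54 and 6.32 in RV. Its differences were -0.47 (adjusted p = 0.0725 over all probe sets) and -0.69 (adjusted p = 0.0417), in the same direction as the brighter set. The within-group SD of Alad was 0.50 in WT, larger than that of 99.3% of genes, and 0.11 in KO, larger than that of 44.7%. Among the other steps only Alas2 (0.48) came near it in WT, and the remaining 6 had 0.06 to 0.29.

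Set against the mean of the other steps on the same array, Alad stood higher in WT than in KO. Its log2 value minus the mean of the other 7 members was 0.67, 1.48 and 1.45 in WT LV and 0.66, 1.23 and 1.43 in WT RV. In KO this gap was 0.18, 0.18 and 0.22 in LV and 0.24, 0.09 and 0.16 in RV. No KO array reached a WT array. The group means were 1.20 ± 0.46 and 1.11 ± 0.40 in WT and 0.19 ± 0.02 and 0.16 ± 0.07 in KO (SD, n = 3 each), so that KO minus WT was -1.01 in the left and -0.94 in the right ventricle. A gap compares different probes, so its change between arrays is informative and its size is not, and no test was made on a score over the members. The gap was computed for Alad alone, so its change is not shown to be particular to Alad. Alas2 itself differed by -1.06 in LV and -1.22 in RV, against -1.39 and -1.26 for Alad. As background, Alad is known to vary in copy number between inbred mouse strains, and copy number was not measured here.

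Of 11355 genes with a mean above the median of all values, those whose pattern over the 12 arrays was most like that of Alad were Mpg (Pearson r = 0.98), Hdhd3 (0.98), Pex10 (0.98), Nrtn (0.97) and Ift57 (0.97). All points share the division of the arrays into genotypes, so these coefficients are a description. Hdhd3, a gene of the haloacid dehalogenase family, lies directly next to Alad in RefSeq order. This neighbourhood was looked at because of that ranking, after the values were seen. Hdhd3 read 6.77, 7.39 and 7.70 in WT LV and 6.85, 7.19 and 7.69 in WT RV, against 6.32, 6.19 and 6.51 in KO LV and 6.32, 6.35 and 6.60 in KO RV. As for Alad, replicate 1 was lowest and replicate 3 highest in both WT groups, and KO lay below WT. Its differences were -0.95 (SE 0.22, adjusted p = 0.0059) and -0.82 (SE 0.22, adjusted p = 0.0363). Over the 6 WT arrays alone its r with Alad was 0.99, and it ranked 3 among all 11355 genes, behind Setd4 and Fbln5.

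On their brightest sets the other neighbours did not share this pattern to the same extent. On the other side of Alad lies Pole3, a histone-fold subunit of DNA polymerase epsilon, which differed by -0.39 (adjusted p = 0.00852) in the left and by -0.13 (adjusted p = 0.423) in the right ventricle, with r = 0.41 over the WT arrays. Of the 10 nearest protein-coding genes, 5 on each side and all measured, 2 were lower and 1 higher in KO LV, and 1 was lower and 0 higher in KO RV, counts near the shares of all genes (12.3% and 18.6% in LV, 3.58% and 4.61% in RV). The gene called in both ventricles was Hdhd3. Rgs3 had r = 0.86 with Alad over the WT arrays but differences of -0.10 and -0.15, neither called. A dim Wdr31 set, below the median of all values, read 4.64, 4.81 and 4.90 in WT LV and 4.46, 4.82 and 4.89 in WT RV. Its replicates were thus ordered as for Alad, and it read 4.30 to 4.60 in KO LV and 4.34 to 4.47 in KO RV. The dimmest Pole3 set read 7.44, 7.97 and 7.98 in WT RV and 7.31, 7.16 and 7.45 in KO RV.

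**Figure D2:**
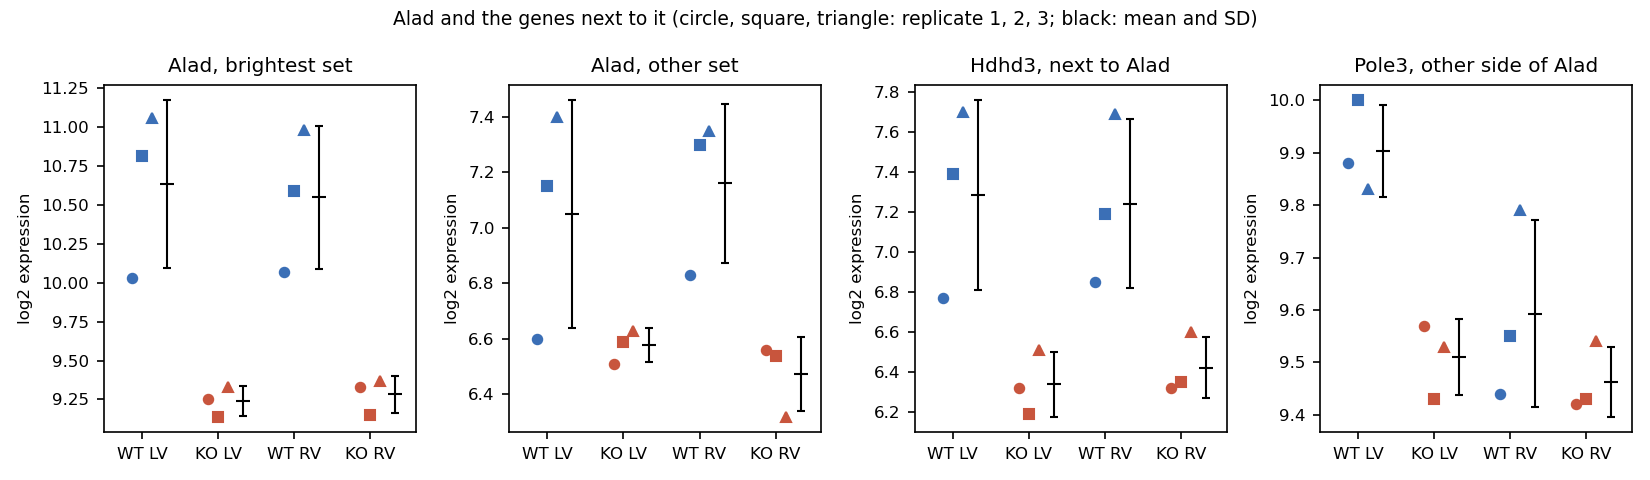
Log2 expression (vertical axes, scaled per panel) of Alad on both of its probe sets and of the genes on either side, Hdhd3 and Pole3, by group, with 1 symbol per array and mean with SD in black. Circles, replicate 1, are the lowest WT values of Alad and Hdhd3 in both ventricles, at 10.03 and 10.07 for the brighter Alad set. KO values lie below all WT values for the brighter Alad set and for Hdhd3.

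The synthases of the entry step differed in size. Alas2, measured by a single probe set, read 8.69, 8.69 and 9.63 in WT LV and 7.93, 7.73 and 8.17 in KO LV. In RV the WT arrays gave 8.57, 8.70 and 9.33 and the KO arrays 7.46, 7.58 and 7.89. All KO arrays lay below all WT arrays, and replicate 3 was highest in all 4 groups. Alas2 fell by 1.06 in LV (9.0 ± 0.54 against 7.94 ± 0.22, SD, n = 3 each, SE 0.24, limma adjusted p = 0.00535) and fell by 1.22 in RV (8.87 ± 0.41 against 7.64 ± 0.22, SE 0.24, limma adjusted p = 0.00756), or 2.08-fold and 2.33-fold lower. With the poly-A control level as a term the left difference was -0.65 and not called (adjusted p = 0.104), and the right one, -0.90, was called. Group means ran WT LV, WT RV, KO LV, KO RV, with no ventricle difference beyond the spread.

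Alas1 read 9.95, 9.82 and 10.13 in WT LV and 9.61, 9.66 and 9.87 in KO LV, which overlap. On the RV arrays it was 10.04, 10.14 and 9.98 for WT and 9.74, 9.83 and 9.89 for KO, which do not. Its differences, -0.25 (95% interval -0.47 to -0.04, limma adjusted p = 0.0725) and -0.23 (-0.45 to -0.02, adjusted p = 0.165), did not pass. The LV difference was called with quantile normalization once more (adjusted p = 0.0237), with array weights (adjusted p = 0.0472) and without WT LV replicate 2 or KO LV replicate 3, and the RV difference with array weights (adjusted p = 0.0267). With the mean of the probe sets the LV value was 0.01. A dimmer Alas1 probe set, of the kind whose probes can match other transcripts, went the other way, at 0.28 (adjusted p = 0.0447 over all probe sets) and 0.18 (adjusted p = 0.268), so the probe sets of Alas1 disagree in sign. For the synthase of non-erythroid tissue the arrays give no agreed direction.

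The genes most like Alas2 over the 12 arrays by the same measure were Rnaseh2a (r = 0.98), Gpaa1 (0.98), Abcf2 (0.98), Cldn5 (0.98) and Septin4 (0.97). Among them Cldn5 encodes a tight junction protein of endothelium. None of these 5 is on the lists of erythroid genes or globins used here. Only genes with a mean above the median of all values were ranked, among them 13 of the erythroid list and 5 globins. These are a small part of the genes ranked, so their absence from a top 5 is uninformative. The coefficients also share the division of the arrays into genotypes. Whether Alas2 follows the red cell content of the pools was not tested.

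Uros and Urod, the cytosolic steps that close the porphyrin ring and decarboxylate it, were lower in KO LV. Uros read 9.66, 9.77 and 9.58 in WT LV and 8.79, 8.69 and 8.76 in KO LV, well apart. In RV the WT arrays gave 9.46, 9.36 and 9.85 and the KO arrays 9.14, 9.06 and 9.43, which overlap. KO minus WT was -0.92 in LV (9.67 ± 0.10 against 8.75 ± 0.05, SD, n = 3 each, SE 0.13, limma adjusted p = 0.000237) and -0.35 in RV (9.56 ± 0.26 against 9.21 ± 0.19, SE 0.13, adjusted p = 0.108). With the mean of its probe sets the LV value was -0.39 and still called. The interaction, 0.58 (95% interval 0.19 to 0.96), did not pass after adjustment (adjusted p = 0.314). It passed without WT RV replicate 3, at 0.72 (adjusted p = 0.0252), and with array weights, at 0.67 (adjusted p = 0.0326). Interaction calls over all genes moved as well. They ranged from 2 to 1309 without single arrays and from 1 to 1364 over the other settings, against 4 in the main fit.

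The narrower difference in right ventricles went with higher Uros in KO RV than in KO LV, where the arrays did not overlap, as for 19.7% of all genes. RV minus LV was 0.46 in KO (95% interval 0.19 to 0.74, limma adjusted p = 0.128) and -0.11 in WT (-0.39 to 0.16, adjusted p = 0.679). The KO value was called without WT RV replicate 3 (adjusted p = 0.0352), with array weights and with the poly-A control term. Calls of RV minus LV in KO over all genes ranged from 104 to 684 over the other settings, against 208 in the main fit. A second Uros probe set lay near the median of all values (mean 5.56) and differed by 0.14 and -0.10, neither called.

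Urod read 11.63, 11.73 and 11.79 in WT LV and 11.20, 11.07 and 11.23 in KO LV. On the RV arrays it was 11.55, 11.46 and 11.74 for WT and 11.16, 11.16 and 11.42 for KO. KO lay below WT in both ventricles with no overlap. Urod fell by 0.55 in LV (11.72 ± 0.08 against 11.17 ± 0.09, SD, n = 3 each, SE 0.10, limma adjusted p = 0.00149), and its RV value was -0.34 (11.58 ± 0.14 against 11.25 ± 0.15, SE 0.10, adjusted p = 0.0575). The right ventricle difference was called in 6 of 22 other settings, with the lowest adjusted p under the replicate block (limma adjusted p = 0.0226). The Urod set used is of the kind whose probes can match other transcripts. The other Urod probe set gave -0.60 (adjusted p = 0.00187 over all probe sets) and -0.26 (adjusted p = 0.162).

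Of the mitochondrial oxidases that follow, Ppox was higher in KO in both ventricles and Cpox in the left. Ppox read 7.44, 7.58 and 7.47 in WT LV and 8.22, 7.95 and 7.83 in KO LV. On the RV arrays it was 7.55, 7.46 and 7.54 for WT and 8.43, 8.08 and 8.04 for KO. All KO arrays lay above all WT arrays, the reverse of Alas2, Alad and Fech. Ppox was higher in KO by 0.50 in LV (7.50 ± 0.07 against 8.0 ± 0.20, SD, n = 3 each, SE 0.12, limma adjusted p = 0.00608) and by 0.67 in RV (7.52 ± 0.05 against 8.18 ± 0.21, SE 0.12, limma adjusted p = 0.00381). The left difference was 0.35 with the poly-A control term and not called (adjusted p = 0.102). Other Ppox probe sets were below the median of all values (means 4.33 and 4.31) and gave -0.44 and -0.00 in LV and -0.38 and -0.15 in RV, none called. With the mean of its probe sets Ppox differed by 0.02 and 0.05, so its rise rests on the bright set.

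Cpox read 7.26, 6.74 and 7.24 in WT LV and 7.62, 7.50 and 7.71 in KO LV, without overlap. On the RV arrays it was 7.62, 7.34 and 7.07 for WT and 7.55, 7.57 and 7.48 for KO, with overlap. The left difference was 0.53 (7.08 ± 0.29 against 7.61 ± 0.11, SD, n = 3 each, SE 0.15, limma adjusted p = 0.0154), and the right one 0.19 (95% interval -0.13 to 0.51, adjusted p = 0.439). The left call ended without WT LV replicate 2 (0.36, adjusted p = 0.0699), without KO LV replicate 3 (0.48, adjusted p = 0.0588), with the poly-A control term (0.38, adjusted p = 0.174) and with the mean of its probe sets (0.18, adjusted p = 0.191). A second Cpox set (mean 6.91) read 0.30 and 0.40, in the same direction and not called, and the dimmest set, well below the median of all values, read -0.30 and -0.09.

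Fech, the ferrochelatase that completes haem, depended on the probe set, and its brightest set is of a kind whose probes are shared among transcripts. The brightest set read 10.89, 11.01 and 11.45 in WT LV and 10.13, 10.14 and 10.22 in KO LV. On the RV arrays it was 11.05, 11.09 and 11.36 for WT and 10.16, 10.14 and 10.30 for KO. KO lay below WT in both ventricles, with differences of -0.95 (11.12 ± 0.29 against 10.16 ± 0.05, SD, n = 3 each, SE 0.13, limma adjusted p = 0.000227) and -0.97 (11.17 ± 0.17 against 10.20 ± 0.09, SE 0.13, limma adjusted p = 0.00049). The next brightest set (mean 9.80) gave -0.84 (adjusted p = 0.00993 over all probe sets) and -0.74 (adjusted p = 0.0497).

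Another Fech set (mean 9.17) ran opposite. It read 8.60, 8.46 and 9.15 in WT LV, 9.48, 9.36 and 9.53 in KO LV, 9.07, 8.96 and 9.20 in WT RV and 9.35, 9.36 and 9.53 in KO RV. KO lay above WT without overlap in both ventricles, by 0.72 (adjusted p = 0.00417 over all probe sets) and 0.34 (adjusted p = 0.196). The dimmest set, below the median of all values, gave -0.04 and -0.13. With the mean of the 4 sets the differences were -0.28 (adjusted p = 0.0804) and -0.38 (adjusted p = 0.058), so the probe sets of Fech disagree in sign. Within both genotypes replicate 3 was highest on the brightest set, as for Alas2.

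**Figure D3:**
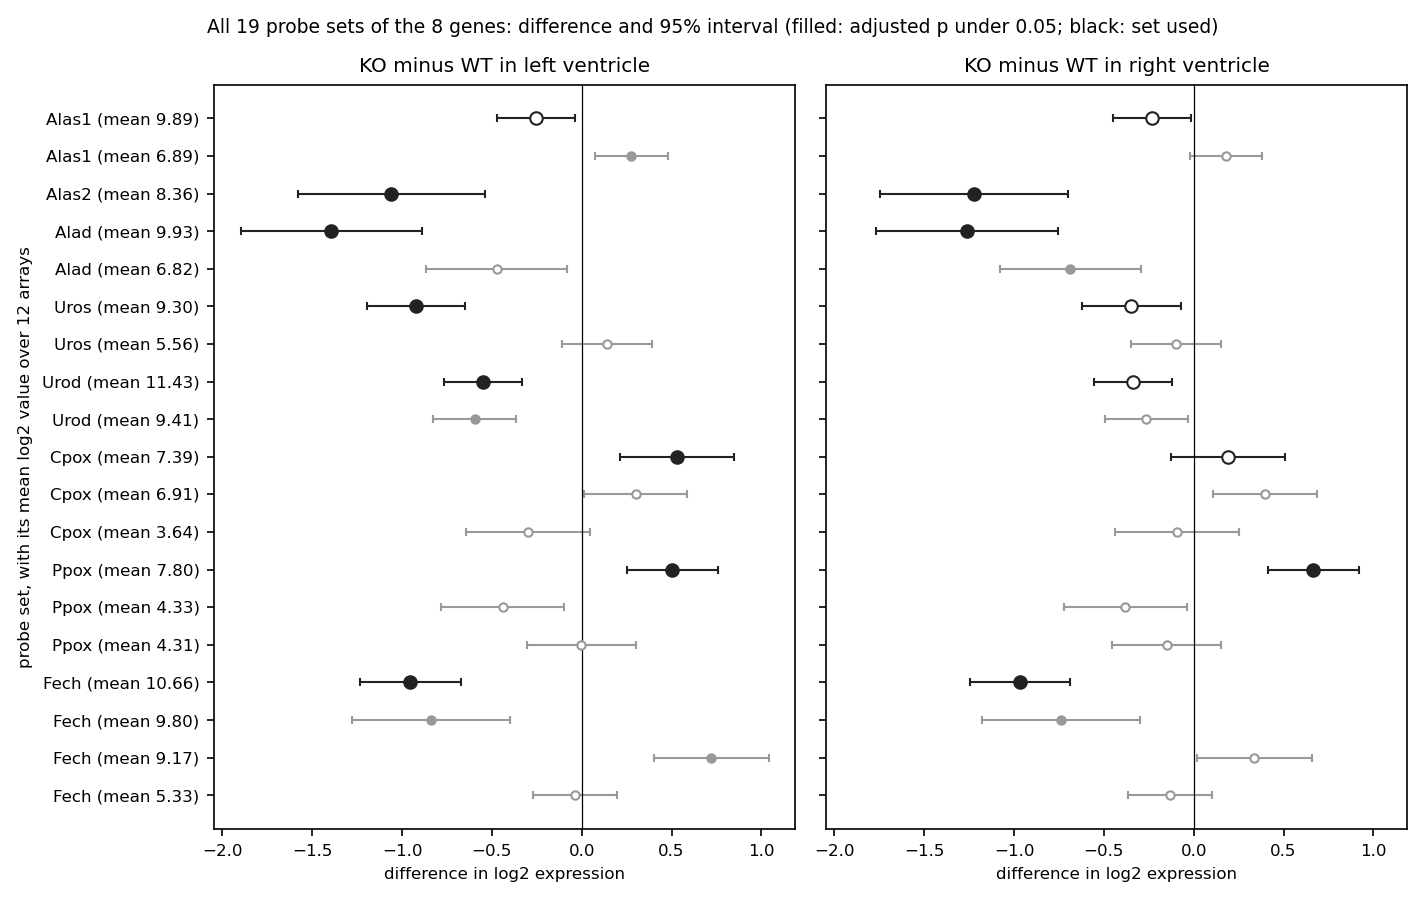
Difference KO minus WT in log2 expression (horizontal axis) with its 95% interval for all 19 probe sets of the 8 genes, left and right ventricle, labelled by gene and mean log2 value, with filled points for an adjusted p under 0.05 and black for the set used. The sets of Urod and Alad lie on one side of 0, whereas those of Alas1 and Fech lie on both, with Fech at -0.95, -0.84 and 0.72 in LV.

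Between ventricles of one genotype 0 of 8 members were called, in WT, where 0.984% of all genes were called, and in KO, where 1.14% were. The lowest unadjusted limma p of a member was 0.0975 in WT (Cpox) and 0.00275 in KO (Uros). The shares of all genes at those levels were not counted. The members' differences ran from -0.14 to 0.26 in WT and from -0.30 to 0.46 in KO. Intervals were widest for Alas2, at -0.66 to 0.39 in WT and -0.82 to 0.22 in KO, so differences of that size lie within the error of this fit. Same-numbered KO pools all differed one way for Alas2 (-0.47, -0.15 and -0.28), Ppox (0.21, 0.13 and 0.21) and Uros (0.35, 0.37 and 0.67). They also did for Alas1 (0.13, 0.17 and 0.02) and Alad (0.08, 0.01 and 0.04). How often this occurs over all genes was not counted. With the replicate number as a block within each genotype these were not called either (limma adjusted p = 0.207 for Alas2, 0.39 for Ppox and 0.144 for Uros). For Alas1 and Alad the limma adjusted p was 0.708 and 0.869.

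Genes that supply or move substrates for haem synthesis were partly lower in KO. Of 18 measured of 21 listed, 7 were lower and 1 higher in LV, where 12.3% and 18.6% of all genes were, with a median difference of -0.07. In RV 2 were lower and 1 higher, against 3.58% and 4.61% of all genes, with a median of -0.14. The RV lower count was 1 without WT RV replicate 3, KO LV replicate 1 or any KO RV array, and the higher count was 0 without KO RV replicate 2 or 3. The largest called difference was that of Slc25a37, mitoferrin 1, which carries iron into mitochondria of red cell precursors. It read 9.39, 9.36 and 10.21 in WT LV, 8.52, 8.55 and 8.65 in KO LV, 9.60, 9.44 and 9.97 in WT RV and 8.59, 8.54 and 8.75 in KO RV. As with Alas2, KO lay below WT and replicate 3 was highest in every group. Its differences were -1.08 (SE 0.19, limma adjusted p = 0.00113) and -1.04 (SE 0.19, adjusted p = 0.00452). Iscu, the scaffold of iron-sulphur cluster assembly, differed by -0.53 and -0.44, both called. Flvcr2, which transports choline and was first described as a haem carrier, was higher by 0.40 in LV, and Flvcr1 by 0.42 in RV, where its other probe set read -0.21.

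Of 11 measured of 12 listed genes of haem breakdown and carriage, 3 were lower and 3 higher in LV, against 12.3% and 18.6% of all genes. The LV higher count was 2 without any 1 KO array, WT LV replicate 1, WT LV replicate 2 or WT RV replicate 1. Without WT RV replicate 1 the LV lower count was 4. In RV 1 was lower and 1 higher, against 3.58% and 4.61%, and the lower count was 3 without WT RV replicate 2 and 2 without KO RV replicate 3. The haem-binding proteins went apart, Hebp1 at -1.11 and -0.91 and Hebp2 at 0.64 and 0.98, all called, though the dimmest Hebp2 set read -0.08 and -0.24. Blvra, biliverdin reductase A, fell by 0.86 in LV, and Slc40a1, the iron exporter ferroportin, rose by 0.37. Of 9 genes that control haem synthesis or sense haem and iron, 6 were higher and 0 lower in LV, against 18.6% and 12.3% of all genes, with a median of 0.46, and 1 was higher in RV, where 4.61% of all genes were. The RV count was 3 without WT RV replicate 1 and 0 without WT RV replicate 2, WT RV replicate 3, KO RV replicate 1 or KO RV replicate 2. Aco1, the iron regulatory protein 1 that in its iron-free form blocks translation of Alas2, rose by 0.67 in LV, where its other sets read 0.41 and 0.01. Foxo1, a forkhead transcription factor, rose by 0.65, with other sets at -0.21 to 0.79. In RV the call was Hif1a, the oxygen-regulated subunit of hypoxia-inducible factor, at 0.34, whose other probe sets read -0.14 to 0.37 there.

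Some red cell genes were lower in KO as well. Of 19 measured of 23 listed erythroid genes, 3 were lower and 0 higher in KO LV, where 12.3% of all genes were lower, and 7 were lower and 0 higher in KO RV, where 3.58% were. The LV count is near the share of all genes. The medians of the list were -0.37 and -0.40. Ank1, at 0.26 and 0.10, and Tal1, at 0.22 and 0.14, were the list's only genes above 0, neither called. These counts moved when single arrays were left out, to 1 without WT LV replicate 3 or KO LV replicate 2 and 6 without WT RV replicate 1 in LV. In RV the count ranged from 2 to 7, with 2 without WT RV replicate 1, KO RV replicate 2 or KO RV replicate 3. Trim10, a tripartite motif gene of terminal erythroid differentiation, differed by -0.58 and -0.84, both called. Rhd, a red cell membrane protein, differed by -0.52 in both, also called. Car2, a carbonic anhydrase of red cells and other tissues, read -0.37 (not called) and -1.0, and Klf1, an erythroid transcription factor, read -0.52 (not called) and -0.95. The mean level of the list ran from 6.57 to 6.66 in WT LV, 6.11 to 6.40 in KO LV, 6.56 to 7.23 in WT RV and 6.18 to 6.52 in KO RV, and 13 of the 19 genes had a mean above the median of all values. On WT RV replicate 1 the list was highest, at 7.23, while Alas2 was lowest among WT arrays there, at 8.57. What part the erythroid content of the pools has in the members' differences was not tested.

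Individual globins differed in direction. Hbb-y, an embryonic beta-like chain, rose by 0.37 in LV, with 0.28 in RV (not called), and Hba-x, the embryonic zeta chain, by 0.79 in LV, with 0.71 in RV (not called). A probe set assigned to Hbb-b2, an adult beta chain, differed by -1.44 and -1.20, both called, but its probes can match other globin transcripts and a dimmer set read 0.61 and 0.48. Of 6 measured globin genes 2 were higher and 1 lower in LV, against 18.6% and 12.3% of all genes, and 0 and 1 in RV, against 4.61% and 3.58%. In LV the higher count was 1 without WT LV replicate 2, KO LV replicate 1 or KO LV replicate 3, and the lower count was 2 without WT LV replicate 2. In RV the higher count was 1 without WT LV replicate 2, WT RV replicate 1 or KO LV replicate 2. Probe sets with several symbols were not used. Of 8 measured fetal liver genes 2 were lower in LV, Alb at -2.26 and Afp at -2.42, against 12.3% of all genes. In RV 0 were lower, against 3.58%. Without WT LV replicate 2 or KO LV replicate 2 the LV count was 0. It was 1 without WT LV replicate 1 or KO LV replicate 3, and 4 without WT RV replicate 1. The liver is the main site of definitive red cell formation at this stage. Of 10 macrophage genes, whose cells recycle haem, 8 were higher in LV, led by Laptm5 (1.47) and Ptprc (1.40), against 18.6% of all genes. In RV 4 were higher, led by C1qb (0.92) and Ptprc (0.76), against 4.61%. The RV count was 2 without KO RV replicate 2. The mean level of the macrophage genes ran from 6.93 to 7.13 in WT LV and from 7.82 to 8.03 in KO LV. Of 12 myocardial genes 3 were higher in LV, led by Myh6 (1.76) and Actn2 (0.54), and 1, Myh6 (1.33), in RV, shares near the 18.6% and 4.61% of all genes. The part of these contents in the members' differences was not tested.

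**Figure D4:**
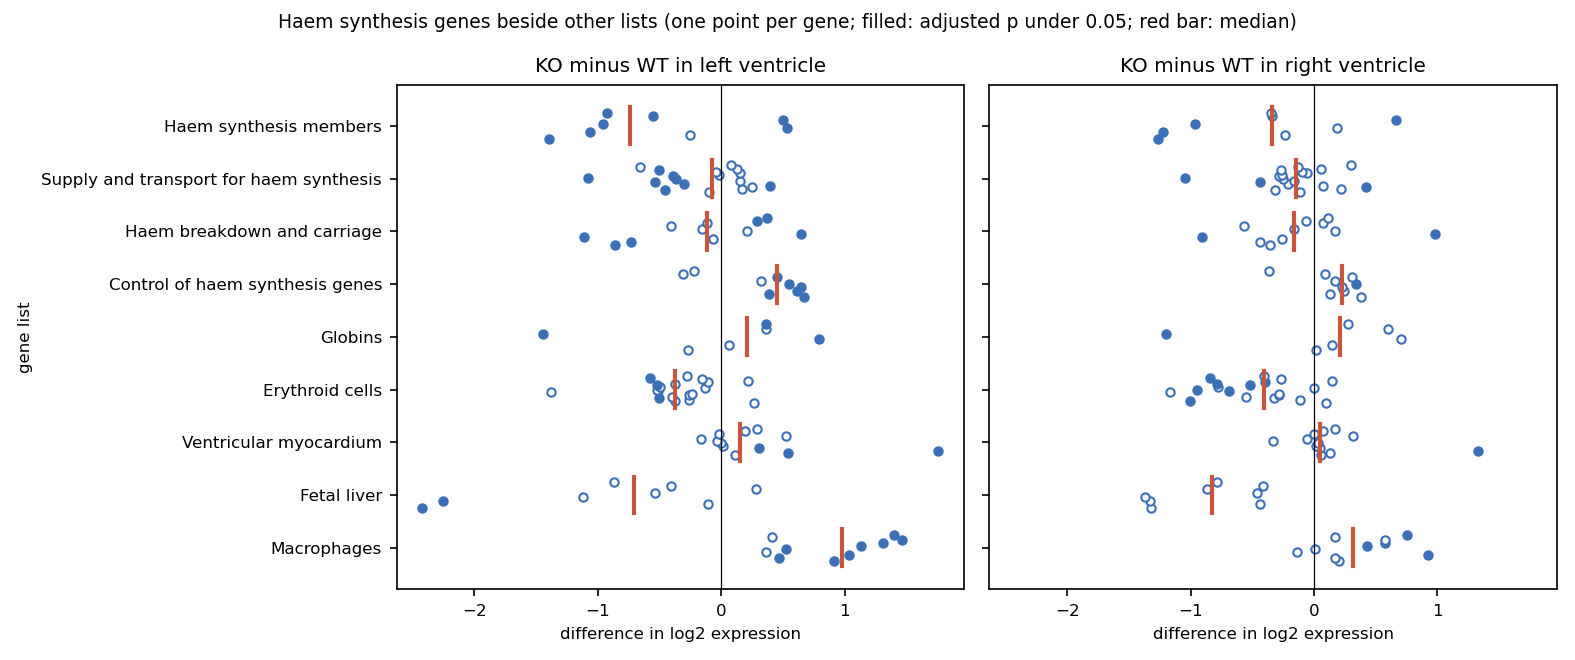
Difference KO minus WT in log2 expression (horizontal axis) of each measured gene of 9 gene lists, left and right ventricle, with filled points for an adjusted p under 0.05 and a red bar at the list's median. The haem synthesis genes have medians of -0.74 and -0.34 with members on both sides of 0, and erythroid genes lie mostly below 0, with medians of -0.37 and -0.40.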

How the data were processed

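Per the submitters' processing notes, the authors made the deposited log2 expression values by RMA, which corrects background, equalises the distributions of the arrays and combines a set's probes into 1 value. The sources used here give no RMA version or genome build. That the values are log2 follows from RMA and from their range, 2.42 to 15.19. A change common to most genes would be lost in the equalising. Groups came from the titles, and 0 value columns were left unused.

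The annotation gave a single symbol to 34958 of 45101 probe sets, several to 932 and none to 9211; RefSeq gene IDs (GRCm38.p6) matched 34754 and changed 0 symbols. The brightest set per gene was used, with no filter on dim genes. A mean per group was fitted to all 12 arrays with limma 3.58.1 (R 4.3.3), p-values were adjusted by Benjamini-Hochberg over 18194 genes, and an adjusted p under 0.05 was called. Adjusted p-values of other probe sets are over all single-symbol probe sets. The script was tested on simulated data. Tables and figures were made in Python 3.11.15.

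Members and lists were chosen with earlier results of these data known. The text names all 8 members, the called genes with the largest differences of each other list, and the 5 genes most like Alad and Alas2. Other list genes and the neighbours of Alad were chosen after their values were seen. Other settings were a dim-gene filter, 2 further normalizations, trend and robust variances, array weights, a replicate block, other probe set rules, the compared groups alone, a poly-A control term and leaving out each array. Deviations from group means correlated between same-numbered arrays at 0.21 to 0.29 for KO LV and KO RV. For WT RV and KO RV the range was 0.11 to 0.31, and for WT LV and KO LV 0.01 to 0.42. Between WT LV and WT RV the range was -0.01 to 0.23. It was -0.07 to 0.24 for WT LV and KO RV and -0.18 to 0.13 for WT RV and KO LV. The labels give replicate numbers only, WT and KO pools are of different embryos, and the main fit did not pair arrays.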

Additional observations from a re-analysis of the deposited data

How the results depend on the processing

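Under the settings run, the count of called members in the left ventricle (7) was 7 or 8 except for 4 with the mean of a gene's probe sets and 4 with the poly-A control term. It was 7 without any single array, though without WT LV replicate 2 or KO LV replicate 3 Alas1 was called and Cpox was not. In the right ventricle the count (4) was 2 with the mean of a gene's probe sets 3 with another Fech probe set and otherwise 4 to 6, with 4 to 5 when single arrays were left out. The interaction and RV minus LV in KO (0 each) had 1 with array weights, and the latter 1 with the poly-A control term; leaving out arrays gave 0 to 1 for both, the 1 being Uros without WT RV replicate 3. RV minus LV in WT was 0 throughout. Alad minus the other members ranged from -1.27 to -0.63 in the left and from -1.16 to -0.70 in the right ventricle. With the Fech probe set of the highest KO minus WT difference, chosen after seeing the data, Fech turned to 0.72 in the left and 0.34 in the right ventricle. The replicate block changed no member's call but Urod in the right ventricle and gave 7 and 5 called members in the left and right ventricles. Calls over all genes ranged from 2558 to 8938 in the left ventricle (5617), 762 to 2858 in the right (1490), 1 to 1364 for the interaction (4), 41 to 2212 for RV minus LV in WT (179) and 104 to 684 in KO (208). In the right ventricle, leaving out single arrays moved the higher genes that control haem synthesis from 1 to between 0 and 3 and the higher macrophage genes from 4 to between 2 and 5. The causes were not tested. Signs were compared only where a difference passed the threshold in either setting. Detection calls were not analysed here, so the dim probe sets carry no statement on presence.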
